A study of Homo sapiens with 48 samples.

Results

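TWEAK-only acetylated regions were the H3K27ac regions listed at 6 h of TWEAK that shared no base with any H3K27ac region of vehicle, of 30 min of TNFα or of 6 h of TNFα. On chromosomes 1 to 22 and X, 3648 of the 57982 H3K27ac regions at 6 h of TWEAK met this rule (6.29%). The members were chosen by presence or absence in the peak lists, so their absence from vehicle and TNFα is a definition and not a finding, and it was not a test of ChIP signal between conditions. The other regions of the list served as comparison and comprised 50919 regions also listed in vehicle and 3415 regions absent from vehicle but listed after TNFα, which are called regions of both ligands.

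The data were ChIP-seq peak lists from L3.6pl, an established human pancreatic ductal adenocarcinoma (PDAC) cell line, for H3K27ac, RELA, RELB and FOSL1. Cells received vehicle (PBS, of which the labels give no duration), TNFα for 30 min or 6 h, or TWEAK for 30 min or 6 h, and FOSL1 was profiled in vehicle only. Each of the 16 conditions had 3 replicates, which the authors merged into 1 list (not settled for RELA at 30 min of TNFα), so no value below has a spread between replicates and the depth per sample is unknown. All findings refer to 1 cell line.

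H3K27ac is a histone mark placed by acetyltransferases such as p300 and CBP, and it marks active promoters and enhancers. TWEAK binds its receptor FN14 (TNFRSF12A), which stabilises the kinase NIK and promotes processing of p100 to p52, the partner of RELB in the noncanonical NF-κB pathway. TNFα activates the canonical pathway, in which IκB is degraded and RELA enters the nucleus, and FOSL1 is a subunit of AP-1, which binds many active enhancers of carcinoma cells.

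The vehicle list fitted an epithelial line at its defining genes. An H3K27ac region of vehicle lay within 1000 bp of a transcription start site in 8 of 8 epithelial and duct marker genes, among them KRT19, EPCAM and CDH1. The same held for 2 of 4 leukocyte, 2 of 3 endothelial and 2 of 3 fibroblast markers, including CD68, VWF and COL1A1, while PTPRC, CDH5 and DCN had no such region. An acetylated start site does not measure expression.

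Sequences are shown for a few members that carry the comparisons below, on the plus strand of hg38. The first is the tandem repeat member with the highest RELB fold enrichment, at chrX:61232667-61232877, an intergenic region 2118455 bp from SPIN4. Capitals mark the 135 of its 211 bases that equal the base 171 bp further along, the repeat period of alpha satellite DNA at centromeres, and 59.0% of the 1000 bp around its centre matched at this shift.
Chromosome X satellite region: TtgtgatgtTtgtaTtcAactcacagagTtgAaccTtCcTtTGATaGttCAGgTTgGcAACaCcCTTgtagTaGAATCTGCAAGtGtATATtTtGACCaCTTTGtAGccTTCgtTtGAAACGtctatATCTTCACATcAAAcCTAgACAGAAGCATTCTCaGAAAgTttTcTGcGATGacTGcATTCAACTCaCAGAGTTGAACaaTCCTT
A pair of members was chosen for high acetylation scores. The region at chr6:26305611-26305858 is intergenic, 19973 bp from the histone gene H4C8, and had the highest −log10 q of members shown here. The region at chr1:116498940-116499164 lies in an exon of the noncoding RNA gene ENSG00000224950, 45426 bp from CD58, and was also listed at 30 min of TWEAK. It lies 48 bp from a start site of that noncoding gene and 151 bp from an H3K27ac region of vehicle or TNFα. Neither contained a searched motif, so no base is capitalised.
H4C8-proximal region: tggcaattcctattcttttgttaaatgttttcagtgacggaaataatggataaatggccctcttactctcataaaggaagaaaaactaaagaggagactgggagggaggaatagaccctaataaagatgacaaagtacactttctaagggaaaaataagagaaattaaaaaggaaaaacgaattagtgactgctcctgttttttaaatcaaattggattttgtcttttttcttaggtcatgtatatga
CD58-distal region: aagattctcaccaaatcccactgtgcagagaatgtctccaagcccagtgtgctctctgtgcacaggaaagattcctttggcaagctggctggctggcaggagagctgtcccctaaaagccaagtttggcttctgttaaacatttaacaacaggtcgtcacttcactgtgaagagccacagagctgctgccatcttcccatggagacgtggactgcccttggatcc
The last pair overlapped FOSL1 and held the AP-1 motif, in capitals. They lie in an intron of ADGRL4 (chr1:79079850-79080139) and in an intron of TET1 (chr10:68648053-68648253).
ADGRL4 intron region: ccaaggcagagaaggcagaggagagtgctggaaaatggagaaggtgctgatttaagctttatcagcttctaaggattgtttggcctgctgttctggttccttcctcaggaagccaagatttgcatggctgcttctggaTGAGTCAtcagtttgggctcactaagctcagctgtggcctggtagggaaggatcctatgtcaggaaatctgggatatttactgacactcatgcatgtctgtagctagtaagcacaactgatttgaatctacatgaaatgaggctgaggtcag
TET1 intron region: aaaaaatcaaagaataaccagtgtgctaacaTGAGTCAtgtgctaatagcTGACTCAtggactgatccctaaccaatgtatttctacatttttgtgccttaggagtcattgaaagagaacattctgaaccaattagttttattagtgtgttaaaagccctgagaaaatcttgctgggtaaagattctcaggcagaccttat

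TWEAK-only regions were weak and short compared with the list they came from. Their median −log10 q, which MACS2 averages over a broad region, was 1.66, with the central 50% between 1.35 and 2.14, against a median of 4.59 over the whole list, 1.97 in regions of both ligands and 5.49 in regions also in vehicle. The median fold enrichment over input was 2.75 in TWEAK-only regions and 3.21 in the list, and the median length was 262 bp against 627 bp. Only 254 of the 3648 (6.96%) had a −log10 q of at least 3. Over all TWEAK-only regions the 22nd percentile was 1.3, a q of about 0.05, which is the cutoff stated for broad regions. In regions also in vehicle the 2nd percentile was already 1.35. The lowest value was 1.01 in both classes, so whether the stated cutoff applied to the deposited list is not settled. TWEAK-only regions covered 1.08 Mb of the 46.4 Mb in the list. Since these values come from the list that chose the members, they are given as a description.

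**Figure D1:**
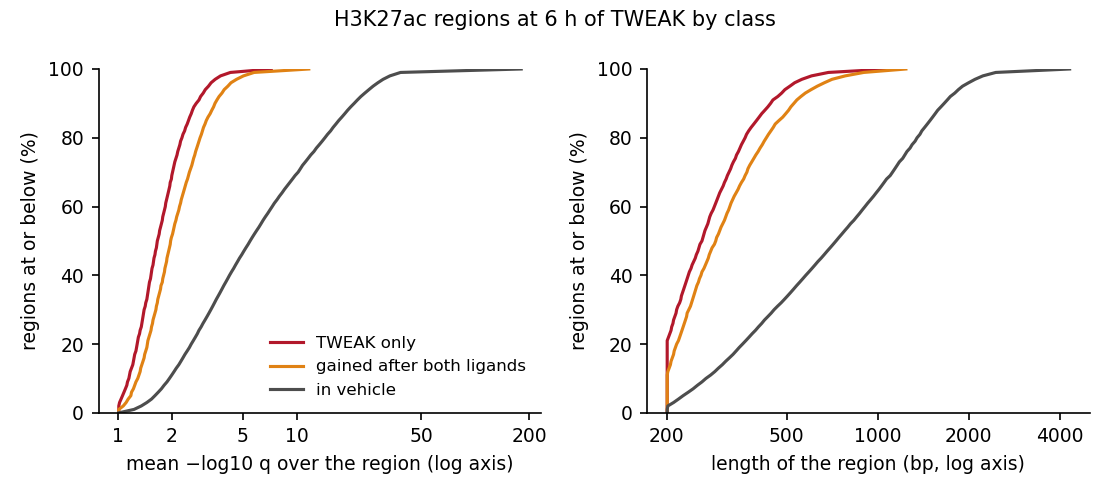
Cumulative share of regions (%) against mean −log10 q over the region (left, log axis) and length in bp (right, log axis) for the 3 classes of H3K27ac regions at 6 h of TWEAK. The curves of TWEAK-only regions (median 1.66 and 262 bp) lie close to those of regions of both ligands (1.97 and 291 bp) and far left of those also in vehicle (5.49 and 728 bp).

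The strongest members included promoters, intergenic regions and satellite repeats. The highest −log10 q was 7.21, with a fold enrichment of 4.59, at a region 575 bp from a start site of RHPN1. Next outside tandem repeats came the region near H4C8, at 5.83, and a region in an intron of the amino acid transporter gene SLC38A4, at 5.72 (chr12:46785099-46785386). The region far from CD58, the ligand of CD2, reached 5.61, and a region 509 bp from a start site of FAM78A reached 5.45. The tenth value belonged to a region 233 bp from a start site of LUC7L2, a splicing factor gene, at 5.19 with a fold enrichment of 2.53. The other 4 of the 10 highest values, from 5.23 to 6.19, lay in tandem repeats, with ZNF254, CNOT3, EMB and ROCK1 as the nearest genes. Of these genes, ZNF254, EMB and ROCK1 were more than 1 Mb away.

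The longest members reached from 875 to 1088 bp. The region of 1088 bp lay in an intron of LINC00578, with TBL1XR1 as the nearest protein-coding gene and a −log10 q of 3.64. Regions of 949 bp (138231 bp from RFC3, a subunit of the clamp loader of replication), 943 bp (31262 bp from TPBG, the trophoblast glycoprotein gene) and 931 bp (in an intron of SLCO1C1, a thyroid hormone transporter gene) had −log10 q values of 1.30, 2.56 and 1.80. The region of 949 bp covered a start site of the noncoding RNA gene ENSG00000288767. The fifth, of 875 bp, lay in a tandem repeat of chromosome 2 with RPIA as the nearest protein-coding gene.

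The rule turns on a single shared base, so the regions at its edge were examined. The median distance from a member to the nearest H3K27ac region of vehicle or TNFα was 7000 bp. Of the 3648 members, 865 (23.7%) lay within 1000 bp of such a region and 160 (4.39%) within 100 bp. The 89 members within 50 bp had a median −log10 q of 1.71 and a median length of 264 bp. Just outside the rule, 145 regions shared at most 50 bp with an excluded region, with a median −log10 q of 1.63 and a median length of 252 bp.

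The same rule was applied to the other H3K27ac lists. With vehicle and TNFα as the excluded lists, 30 min of TWEAK held 4900 regions of its own (8.78% of 55784). With vehicle and both TWEAK lists excluded, 6 h of TNFα held 6561 (10.7% of 61154) and 30 min of TNFα 5420 (10.1% of 53861). Vehicle itself held 5351 regions (8.94% of 59855) that were absent from both TNFα lists and from 6 h of TWEAK. The 3648 TWEAK-only regions at 6 h were thus the smallest of these 5 sets, both as a count and as a share. These sets share excluded lists and are not independent of each other. Median −log10 q was 2.02 in the vehicle set, 2.00 in the set of 6 h of TNFα, 2.07 in that of 30 min of TNFα and 1.92 in that of 30 min of TWEAK, all above 1.66.

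**Figure D2:**
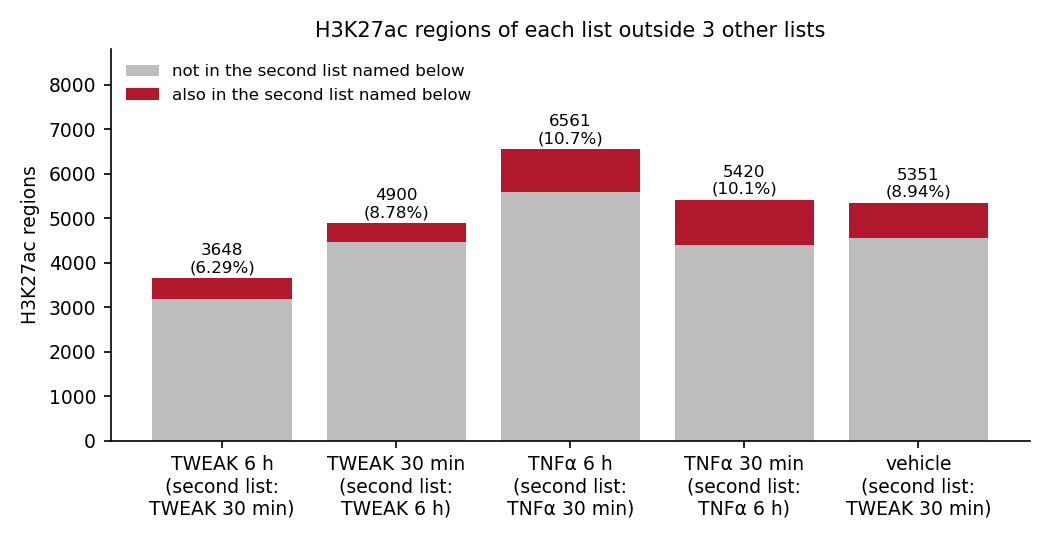
Number of H3K27ac regions (bars, with the share of the list in parentheses) outside 3 other lists (for vehicle, both TNFα lists and 6 h of TWEAK), and in red those also in the second list named under each bar. The 6 h TWEAK bar, at 3648, is the lowest, below the 5351 regions of vehicle alone.

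Few TWEAK-only regions were already listed at 30 min of TWEAK. The H3K27ac list of 30 min held 462 of the 3648 (12.7%, exact 95% interval 11.6 to 13.8), compared with 78.7% of the whole list, 43.9% of regions of both ligands (42.3 to 45.6) and 85.8% of those also in vehicle (85.5 to 86.1). Intervals here and below are Clopper-Pearson intervals over regions, which are not replicates, and cover counting error only. At a −log10 q under 2 the shares were 11.2% (9.97 to 12.5) of TWEAK-only regions, 39.1% (36.8 to 41.4) of regions of both ligands and 54.5% (53.2 to 55.8) of those in vehicle. For reference, 793 of the 5351 regions of vehicle alone (14.8%, 13.9 to 15.8) were in the list of 30 min of TWEAK, although by construction they were absent at 6 h. Of the regions of 6 h of TNFα alone, 14.8% (13.9 to 15.7) were in the list of 30 min of TNFα. By chromosome, the share of TWEAK-only regions also at 30 min ranged from 6.43% on chromosome 15 to 28.4% on chromosome 19. It was 18.5% (16.0 to 21.2) within 1000 bp of an excluded region and 10.9% (9.72 to 12.1) farther away.

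Among the 462 regions of both TWEAK lists, the median −log10 q was 2.14 at the early and 1.82 at the late time. The value was higher at 30 min in 311 and at 6 h in 151, whereas the fold enrichment was higher at 30 min in 161. For 61 of the 462 the region of 30 min itself reached a region of vehicle or TNFα. This applied to the 4 highest values at 30 min. A region in MPRIP (a myosin phosphatase partner) had a −log10 q of 12.7 at 30 min and 1.33 at 6 h, where the 30 min region spanned 3042 bp and the 6 h region 262 bp. A region 264 bp from a start site of EPAS1, which encodes HIF-2α, had 11.6 and 2.85. The regions nearest to VOPP1 and RALGAPA2 had 9.82 and 8.52 at 30 min and 1.35 and 1.51 at 6 h. The fifth, 24288 bp from PRXL2A, was a separate region at both times, with 7.55 at 30 min (305 bp) and 5.02 at 6 h (259 bp). A −log10 q of at least 3 at both times was found in 14 regions.

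**Figure D3:**
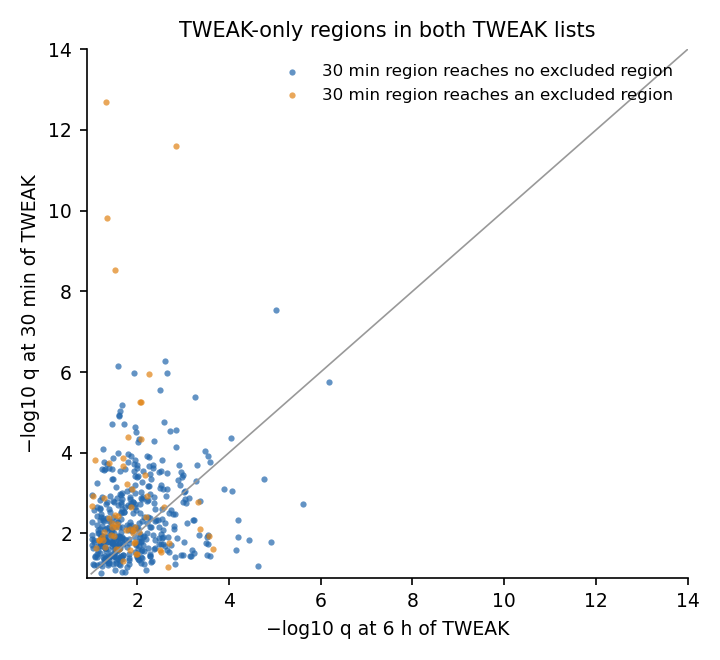
Mean −log10 q at 30 min against that at 6 h for the 462 TWEAK-only regions in both TWEAK lists, 1 point per region, with the line of equal values. Points lie above the line in 311 regions, and the 4 highest at 30 min (8.52 to 12.7) belong to 30 min regions that reach an excluded region (orange).

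RELB was almost absent from TWEAK-only regions outside repeats. At 6 h of TWEAK, 37 of the 3648 (1.01%, 0.715 to 1.40) met RELB, compared with 3.73% of the whole list, 7.17% (6.33 to 8.09) of regions of both ligands and 3.69% (3.53 to 3.86) of those in vehicle. Of these 37, 36 lay in tandem repeats, defined as a self-match of at least 0.4 over the 1000 bp around the centre at a shift of 1 to 400 bp. Tandem repeats held 7.59% (6.75 to 8.50) of TWEAK-only regions, 4.92% of the list, 13.6% (12.5 to 14.8) of regions of both ligands and 14.8% of the regions of 30 min of TWEAK alone. Outside them, 1 of 3371 TWEAK-only regions (0.0297%, 0.000751 to 0.165) overlapped RELB (1.61% of the whole list met a RELB region lying outside repeats), against 51 of 2951 regions of both ligands (1.73%, 1.29 to 2.27) and 877 of 48805 in vehicle (1.80%, 1.68 to 1.92). Seen from RELB, 1636 of 4038 regions at 6 h of TWEAK lay outside tandem repeats, of which 942 (57.6%) met an H3K27ac region of the same condition and 1 met a TWEAK-only region.

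The comparison of RELB was repeated at like −log10 q. At a −log10 q under 2, RELB regions outside tandem repeats met 0 of 2515 TWEAK-only regions (up to 0.147%), 15 of 1749 regions of both ligands (0.858%, 0.481 to 1.41) and 17 of 5602 in vehicle (0.303%, 0.177 to 0.485). In the higher bins the intervals overlapped the values in vehicle, with 1 of 879 TWEAK-only regions at 2 to 3 (0.114%, 0.00288 to 0.632, against 0.442% in vehicle), 0 of 239 at 3 to 5 (up to 1.53%, against 0.935%) and 0 of 15 at 5 or more (up to 21.8%, against 2.68%). Regions of both ligands had 1.95% (1.21 to 2.97) at 2 to 3 and 2.7% (1.49 to 4.49) at 3 to 5. At 5 or more they had 1.37% (0.0347 to 7.4). With tandem repeats counted, RELB met 3.77% (1.74 to 7.03) of TWEAK-only regions at 3 to 5 and 2 of 15 at 5 or more. The shares were 3.62% and 4.46% in vehicle and 17% and 31.5% in regions of both ligands. Within 10 kb of a RELB region outside tandem repeats lay 2.14% (1.69 to 2.66) of TWEAK-only regions and 5.33% of the list.

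The 36 RELB overlaps in tandem repeats were led by regions on chromosomes X, 9, 18 and 19. The satellite region of chromosome X printed above had a RELB fold enrichment of 10.2 and a FOSL1 fold enrichment of 11.6. A region 3868 bp from CNOT3, a subunit of the CCR4-NOT deadenylase complex, had a RELB fold enrichment of 7.64, beside an H3K27ac −log10 q of 5.31. Of all 37 RELB overlaps, 31 were also in the FOSL1 list, 9 were listed for H3K27ac at 30 min and 34 lay over 100 kb from a protein-coding start site. Seen from RELB, 38 RELB regions met a member, and 30 of them were also in the RELB list of vehicle. How repeated sequence bears on these values was not tested.

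The 10 RELA and RELB lists together met few TWEAK-only regions. In none of them were 3520 of the 3648 (96.5%), and in at least 1 were 128 (3.51%), compared with 11.4% of the other regions of the list. Of the 128, 117 lay in tandem repeats and 11 did not, and 10 were in all 10 lists. By RELB list, in the order vehicle, 30 min of TNFα, 6 h of TNFα and 30 min of TWEAK, the shares of TWEAK-only regions were 1.95% (1.52 to 2.45), 1.01%, 1.45% and 0.932% (0.646 to 1.30), compared with 2.73%, 2.29%, 2.67% and 2.08% of the whole list. The RELB list of vehicle met 71 TWEAK-only regions, all of them in tandem repeats, so that outside repeats it met 0 of 3371 (up to 0.109%). Of regions of both ligands, 266 met the RELB list of vehicle and 245 that of 6 h of TWEAK. In tandem repeats these counts were 262 and 194, whereas outside them they were 4 and 51 of 2951. By RELA list, in the order vehicle, 6 h of TNFα, 30 min of TWEAK and 6 h of TWEAK, they were 1.12% (0.808 to 1.52), 1.84% (1.43 to 2.33), 0.932% and 1.62% (1.23 to 2.08), compared with 2.47%, 5.77%, 2.69% and 2.64%. RELA at 30 min of TNFα met 49 (1.34%, 0.995 to 1.77; 9.66% of the list).

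Outside tandem repeats, RELA at 30 min of TNFα met 6 of the 3371 TWEAK-only regions (0.178%, 0.0653 to 0.387), 136 of 2951 regions of both ligands (4.61%, 3.88 to 5.43) and 4097 of 48805 in vehicle (8.39%, 8.15 to 8.64). The nearest genes of these 6 were CDC20B, BEGAIN, MDGA2, CNTNAP3, GTF2IRD1 and DMRTA2, named with their values known. The region 204 bp from a start site of CDC20B had a −log10 q of 3.72 and a FOSL1 fold enrichment of 13.2. In the corresponding sets of TNFα alone, RELA outside tandem repeats met 249 of 6561 regions at 6 h and 349 of 5420 at 30 min, and in the set of vehicle alone 12 of 5351. RELB of 6 h of TWEAK outside tandem repeats met 33, 23 and 2 regions of these sets, and 5 of the 4900 regions of 30 min of TWEAK.

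**Figure D4:**
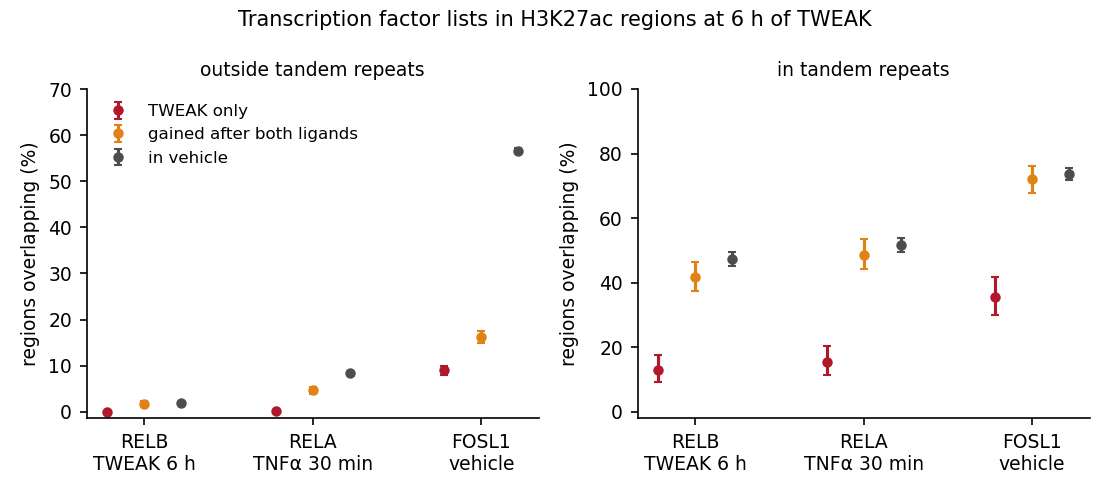
Share of H3K27ac regions at 6 h of TWEAK (%) that overlap RELB at 6 h of TWEAK, RELA at 30 min of TNFα and FOSL1 in vehicle, outside (left) and in (right) tandem repeats, with exact 95% intervals over regions. TWEAK-only regions (red) have the lowest point for each factor on both sides, for RELB 0.0297% outside and 13.0% in tandem repeats.

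FOSL1, mapped in vehicle and so before any ligand, met 401 of the 3648 TWEAK-only regions (11.0%, 10.0 to 12.1), compared with 52.5% of the list, 23.8% of regions of both ligands and 57.4% of those in vehicle. The share in TWEAK-only regions was below that of the whole list on 23 of 23 chromosomes and ranged from 5.53% on chromosome 7 to 21.7% on chromosome 18. It rose with the acetylation score but stayed lowest of the 3 classes in the bins up to 5. At a −log10 q under 2 it was 9.11% (8.01 to 10.3), against 19.7% (17.9 to 21.7) for both ligands and 26.3% (25.2 to 27.5) in vehicle. At 3 to 5 it was 21.3% (16.3 to 27.1), against 34.2% (30.1 to 38.4) and 49.8% (48.9 to 50.8). In regions of 500 bp and more it was 19.3% (14.1 to 25.4), against 27.7% (23.5 to 32.2) and 68.3% (67.8 to 68.8). Only 15 TWEAK-only regions had a −log10 q of 5 or more, and 4 of these (26.7%, 7.79 to 55.1) overlapped FOSL1. These included the regions nearest to CNOT3, EMB and ROCK1, which lie in tandem repeats. FOSL1 met 99 of 277 TWEAK-only regions in tandem repeats (35.7%, 30.1 to 41.7) and 302 of 3371 outside them (8.96%, 8.02 to 9.97). Outside them it met 16.2% of regions of both ligands and 56.6% of those in vehicle. Tandem repeats held 6.08% of TWEAK-only regions at a −log10 q under 2 and 40% at 5 or more. How this bears on the rise in FOSL1 was not tested.

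**Figure D5:**
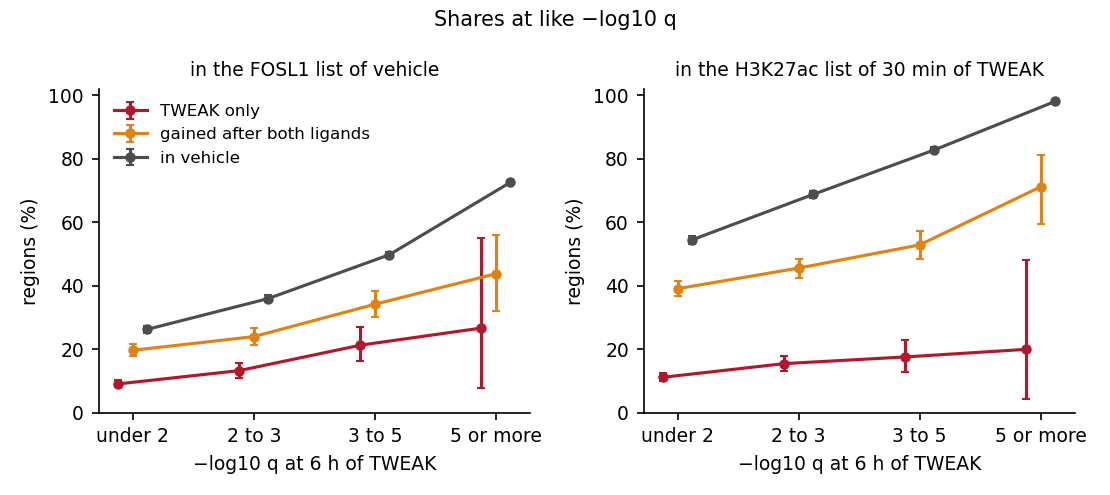
Share of regions (%) in the FOSL1 list of vehicle (left) and in the H3K27ac list of 30 min of TWEAK (right) by bin of −log10 q at 6 h of TWEAK, with exact 95% intervals over regions. TWEAK-only regions (red) lie below the other classes in each bin, from 9.11% to 26.7% for FOSL1, and their interval in the last bin is wide because it holds 15 regions.

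The highest FOSL1 fold enrichments outside tandem repeats, 19.3, 17.7 and 15.1, lay in weakly acetylated members, in an intron of PIWIL3, 26577 bp from CBLB (a ubiquitin ligase gene) and 14146 bp from CXCR1 (an interleukin-8 receptor gene). Their H3K27ac −log10 q values were 1.26, 1.43 and 1.26. These 3 were picked with their values known. The 2 printed FOSL1 members had FOSL1 fold enrichments of 10.5 (ADGRL4 intron) and 8.18 (TET1 intron), with −log10 q values of 1.01 and 1.20, and the FOSL1 summit lay at 79079986, beside the motif at chr1:79079988-79079994, in the first. In the second, the summit at 68648108 lay within the TGACTCA match at chr10:68648103-68648109.

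Motif letters were counted on both strands in the 300 bp around each region's centre. AP-1 (TGACTCA or its reverse complement TGAGTCA) was present in 7.98% (7.12 to 8.90) of TWEAK-only regions and 10.5% of the list. The NF-κB consensus was present in 4.06% (3.44 to 4.75) and 6.36%, and the TEAD motif GGAATG in 16.9% (15.7 to 18.1) and 16.4%. In tandem repeats TEAD letters were found in 28.2% (22.9 to 33.9) of TWEAK-only regions and AP-1 letters in 0.722% (0.0876 to 2.58), compared with 28.4% and 0.216% of regions of both ligands in such repeats and 18.7% and 2.46% of those in vehicle. The central 50% of windows had a GC content of 39.0% to 51.3% in TWEAK-only regions and 40.3% to 59.0% in the list. A match describes letters and not a bound site.

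By annotation, TWEAK-only regions were mostly distal. Promoters, defined as within 1000 bp of a protein-coding start site, held 287 (7.87%, 7.01 to 8.79), compared with 28.3% of the list, 9.28% (8.33 to 10.3) of regions of both ligands and 31.1% (30.7 to 31.5) of those in vehicle. Introns held 55.5% (53.9 to 57.2), intergenic sequence 31.9% (30.4 to 33.4) and exons 4.71% (4.05 to 5.45), compared with 41.5%, 26.2% and 3.97% of the list. At a −log10 q under 2 the promoter share was 7.36% (6.37 to 8.45) of TWEAK-only regions and 9.51% (8.76 to 10.3) of those in vehicle, closer than over all regions. The median distance of a TWEAK-only region to a protein-coding start site was 20924 bp, against 11986 bp in the list.

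A TWEAK-only region lay within 1000 bp of a start site in 287 of 19962 protein-coding genes (1.44%). In 218 of them a region of vehicle or TNFα also lay within 1000 bp of a start site, so an acetylated region was listed there in another condition. Beside RHPN1, FAM78A and LUC7L2, the highest values belonged to RAP1GAP2 (an activator of Rap1 GTPase activity, −log10 q 4.76), HSPA1B (an inducible heat shock protein, 4.73), SHISA2 (4.55), NCALD (neurocalcin delta, a neuronal calcium sensor, 4.47) and DAGLA (which makes the endocannabinoid 2-arachidonoylglycerol, 4.27). HSPA1B has a near-identical copy, HSPA1A, so its reads may not be assigned with certainty. RAP1GAP2 was also listed at 30 min, with a −log10 q of 3.36.

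The remaining 69 genes (24.0%) had no region of vehicle or TNFα within 1000 bp of any start site. Besides FAM78A and NCALD, they included PROC (anticoagulant protein C, −log10 q 3.56), ENPP2 (autotaxin, which makes lysophosphatidic acid, 3.48), BEX2 (3.48) and CARMIL3 (3.25), which were picked with their values known. The PROC region carried FOSL1, with a fold enrichment of 4.45. The BEX2 region, 701 bp long, was also listed at 30 min with a −log10 q of 4.04, and its fold enrichment was 3.44 at 30 min and 3.63 at 6 h.

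Genes of the NF-κB pathway and its targets were then searched for a TWEAK-only region within 50 kb of a start site, which held for 3713 of all 19962 protein-coding genes (18.6%). Of 32 NF-κB feedback and target genes, 10 had one (31.2%), compared with 12 for regions of both ligands (37.5%, 17.2% of all genes) and 20 for regions of 6 h of TNFα alone (62.5%, 27.1% of all genes). The highest values were 3.33 for NFKBIB and 2.38 for NFKBIA (both IκB inhibitors), 2.54 for TNIP2 (an A20-binding inhibitor) and 2.01 for ICAM1 (a leukocyte adhesion receptor). The NFKBIB region lay in an intron of SIRT2, 12074 bp away, and the ICAM1 region in an exon of the gene ICAM5, 9330 bp away. None of these 4 regions overlapped RELB or FOSL1. The NFKBIB and ICAM1 regions were also listed at 30 min of TWEAK. For NFKBIB, the 30 min region itself reached a region of vehicle or TNFα. Of the 10 genes, MMP1 and MMP3 shared the same region.

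Among 5 NF-κB subunit genes, RELA had a TWEAK-only region 33328 bp away (at the promoter of PCNX3, −log10 q 2.66, with FOSL1) and NFKB1 one 25631 bp away (in an intron of MANBA, 1.80). Of 14 genes of the noncanonical pathway and the TWEAK receptor, 2 had one (14.3%). These were TRAF2, an adaptor that restrains NIK, at 1.94, and TNFRSF13C, the BAFF receptor, at 1.22. In comparison, 7 of the 14 had a region of 6 h of TNFα alone (50.0%). Of 30 chemokine and cytokine genes, 3 had a TWEAK-only region (10.0%), CX3CL1 and CCL22 sharing one region at 1.34 and CSF1 having another at 1.05, whereas 10 (33.3%) had a region of both ligands.

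The remaining lists lay near the 18.6% of all genes or below it, and none was tested. Of 13 AP-1 genes, 3 had a TWEAK-only region (23.1%; 30.8% for regions of 6 h of TNFα alone), namely FOSL2 (2.03), JUNB (1.43) and MAFF (1.39). Of 30 EMT and matrix genes, 6 had one (20.0%; 43.3% for 6 h of TNFα alone). The strongest were near COL7A1 (5.03, 4231 bp away in an exon of UQCRC1) and TNC (tenascin C, 3.22, with FOSL1). COL6A1 (2.58, 41 bp from a start site) and ZEB2 (an EMT transcription factor, 2.31) followed. Of 30 epithelial and junction genes, 6 had one (20.0%), compared with 23.3% for regions of 6 h of TNFα alone, and GRHL2 (2.57) and OCLN (occludin, 2.06, 970 bp away) both overlapped FOSL1, whereas SOX9 (1.85) and CLDN4 (1.68) did not. Of 29 interferon response genes, 3 had one (10.3%). Of the study's own gene lists, which were chosen on expression in these cells and are no independent evidence, 105 of the 492 common genes found among protein-coding genes (of 626 listed, TWEAK-specific genes included) and 59 of 263 TNFα-specific genes (of 310 listed) had one (21.3% and 22.4%). The corresponding shares for regions of 6 h of TNFα alone were 37.6% and 42.6%.

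TWEAK-only regions were scattered over the genome. Of the 100 kb windows with any member, 2829 held 1, 346 held 2, 37 held 3 and 4 held 4. Windows with 4 included those on chromosome 7 next to BAIAP2L1 (an actin regulator), on chromosome 3 next to PRKCI (an atypical protein kinase C) and SKIL (a SMAD corepressor) and on chromosome 8 next to POU5F1B. A window with 3 regions next to NEK7, on chromosome 1, had the highest −log10 q of these windows, at 4.55. By chromosome, TWEAK-only regions made up from 3.75% (X) to 8.10% (15) of the list.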

How the data were processed

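The 48 samples fall into 16 conditions of 3 replicates. Per the methods of the study, Bowtie2 (2.5.0) was used by the authors for alignment to hg38, and peaks were called with MACS2 against input, as broad regions for H3K27ac at a cutoff of 0.05. SAMtools 1.18 and deepTools 3.3.2 are named in the submitters' processing notes. The MACS2 version, a blacklist and the treatment of reads with several matches are not given in the sources used here. Each condition has 1 deposited list of merged replicates. The names of the peaks within the RELA list of 30 min of TNFα leave unsettled whether all replicates were merged.

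Values used were the deposited fold enrichment of a region (a ratio of ChIP over input) and the deposited −log10 q, both averaged by MACS2 over broad regions, and, for the 11 narrow lists, the deposited summit offset. Some averaged −log10 q values correspond to a q above the stated cutoff, in TWEAK-only regions up to about the 22nd percentile. Over the whole list of 6 h of TWEAK the lowest value was 1.01. Whether the stated cutoff applied to the deposited list is not settled. The 32 deposited columns of score and −log10 p were not used. Depth per sample is unknown.

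Overlaps of at least 1 bp were computed in Python 3.11.15 (numpy 2.4.6, pandas 2.3.3, scipy 1.17.1, pysam 0.24.0). Bedtools 2.31.1 gave the same 3648 members. Functions were tested on simulated data. Genes came from GENCODE 44. Shares carry exact 95% intervals, and no test was run, because each condition is 1 list.

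The members and lists were chosen with earlier results of these data known. Genes named were those nearest to members with the highest RELB fold enrichment outside tandem repeats (up to 10, of which 1 existed), the highest −log10 q (10), the greatest length (5), the highest −log10 q at promoters (8) and at 30 min (5), the 5 densest windows of 100 kb, and up to 4 genes per gene list. A few items that these rules name are not reported here.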

Additional observations from a re-analysis of the deposited data

How the results depend on the processing

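Of 46 recomputed values, 13 stayed within the 95% interval of the reported value (or, for the number of regions, within a factor of 1.5) and 33 moved. When members within 1000 bp of an excluded region were left out, the share at 30 min was 10.9%, and the other results stayed within their limits. With a −log10 q of at least 3, 254 regions had a median of 3.41, and 17.7% were listed at 30 min, 4.33% overlapped RELB, 21.7% overlapped FOSL1 and 13.4% lay at promoters. For all regions of the list at that threshold, the shares were 92.8%, 4.45%, 65.6% and 37.7%. With a fold enrichment of at least 3, 873 regions had a median −log10 q of 2.51 and shares of 15.3% at 30 min, 2.86% for RELB and 16.7% for FOSL1. With a length of at least 500 bp, 202 regions had a median of 1.72 and shares of 15.3% at 30 min, 0% for RELB (up to 1.81%) and 19.3% for FOSL1. When an excluding region needed a −log10 q of at least 3, 9086 regions had a median of 1.82 and shares of 30.0% at 30 min, 1.42% for RELB and 17.7% for FOSL1. When vehicle alone excluded, 7063 regions had a median of 1.82 and shares of 27.8% at 30 min, 3.99% for RELB and 17.2% for FOSL1. Outside tandem repeats the RELB share was 0.0297% and the FOSL1 share 8.96%. Over all members, RELB regions outside tandem repeats met 0.0274%, RELB within 500 bp 1.59%, FOSL1 within 500 bp 21.6% and promoters within 2500 bp 13.2%. The number of TWEAK-only regions, the share at 30 min (moved in 6 of 7 alternatives), the FOSL1 share (7 of 8) and the RELB share (8 of 9) thus depended on the settings, while the promoter share moved under the −log10 q threshold and the wider promoter alone. No paired analysis was possible because each condition is 1 list of merged replicates, and for the same reason no replicate could be left out.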
